A study of Mus musculus with 8 samples.

Results

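Expression was examined for 8 genes whose proteins bind the receptor LRP1, share its adaptors or can cut it: the cytoplasmic adaptors Dab2, Snx17, Gulp1, Shc1, Apbb1 and Mapk8ip1, the membrane protein App and the protease Bace1. They were chosen by gene symbol, which found all 8 among the 22520 rows of the deposited table, and all 8 were among the 11389 genes with enough signal to be tested. The symbol Dab2 stood on a further row under another identifier (ENSMUSG00000079102), which was listed at 0 in 7 libraries and at 0.0273 in the remaining WT library and was not used. The table names no unit. Its values were taken as FPKM, which scale fragments by transcript length and by sequencing depth, and levels of different genes are set side by side on that reading.

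RNA was sequenced from 4 libraries labelled LRP1 KO and 4 labelled Wildtype (WT), all from C57BL/6 mice at postnatal day 14. The labels describe each library as a mix of heart, liver and lung microvascular cells, while the study's text treats liver cells apart from heart and lung cells. Per the study's methods, PECAM-1 antibody beads were used to select the cells. The study's text gives its LRP1 KO mice as LRP1 f/f; Cdh5-CreER+/- and their littermate controls as LRP1 f/f; Cdh5-CreER-/-. On that account, all animals carried the floxed Lrp1 alleles. Only the LRP1 KO mice carried an inducible Cre recombinase driven by the promoter of Cdh5, a gene of endothelial cells. When the inducer was given, whether controls received it, and how many animals each library holds are not given in the sources used here. P-values therefore measure the spread between these libraries.

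LRP1 is a large endocytic receptor of the LDL receptor family. Its short cytoplasmic tail carries NPxY motifs, short peptides that are read by proteins with a phosphotyrosine-binding (PTB) or related domain, and these adaptors link the receptor to clathrin-coated pits, to recycling endosomes or to kinase signaling. Proteases can release the extracellular part of LRP1 from the cell surface, and what remains in the membrane can be cut by gamma-secretase, which frees the tail. The amyloid precursor protein APP has an NPxY motif of its own, shares several of these adaptors and can be joined to LRP1 through FE65, the product of Apbb1. The comparison asked whether the genes for these partners differed in cells that had lost the receptor.

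The targeted gene was examined first. Lrp1 stood at 103 to 140.4 FPKM in the WT libraries and at 2.79 to 7.72 FPKM in the LRP1 KO libraries, so all 8 libraries matched their labels. LRP1 KO library 4 held the most Lrp1 of the LRP1 KO libraries, at 7.72 FPKM, and was the library that lay closest to WT in the first principal component. Of the markers of endothelial cells, 18 of 18 were in the table. Their summed level was 173.5 to 189 FPKM in WT, 399.5 to 633.8 FPKM in LRP1 KO libraries 1 to 3 and 181 FPKM in LRP1 KO library 4. All 16 tested ones had positive estimates (median 0.82), and only Eng was called (limma adjusted p 0.0279). Pecam1, the gene for the protein used to select the cells, was between 6.80 and 8.76 FPKM in all WT libraries, against 36.3, 18.5, 26.2 and 6.72 FPKM across LRP1 KO libraries 1 to 4. Neither Pecam1 nor Cdh5 passed (limma adjusted p 0.0814 and 0.0766). Markers of fibroblasts, with 11 of 11 in the table, summed to 2415 to 3610 FPKM in WT and 1998 to 3203 FPKM in LRP1 KO. All 10 tested ones had negative estimates (median -0.30), and 2 were called lower: Pdgfra, at 53.04% of the WT mean (limma adjusted p 0.0367), and Dpt, at 29.2% (0.0330). The labelled cell type was thus present by its markers, but fibroblast markers, chiefly collagen genes and Dcn, were far more abundant. Macrophage markers had 13 of 14 in the table, and 8 of 10 tested ones were called higher. They summed to 90.4 to 115 FPKM in WT and 239 to 577 FPKM in LRP1 KO, with no overlap. Cd14 of that list was at 72.2% of its WT mean (limma adjusted p 0.136). Leukocyte markers had 7 of 7 in the table, and 3 of 4 tested ones were called higher. They summed to 3.36 to 3.91 FPKM over the WT libraries, against 10.1 to 17.9 FPKM over the LRP1 KO libraries. Over all tested genes, 6.27% were called higher and 7.31% lower. Mural cell markers, 10 of 10 in the table, summed to 630.2 to 797 FPKM in WT and 983 to 1560.1 FPKM in LRP1 KO. Most of that sum was Acta2 and Tagln, which with Cnn1 were the 3 of 7 tested mural markers called higher, while Pdgfrb had means of 71.6 and 58.02 FPKM and an estimate of -0.31 (limma adjusted p 0.221). In such bulk libraries, fewer cells of a type and less RNA per cell cannot be told apart, and what part these cell types have in the differences below was not tested. Neural markers were near 0, with 6 of 6 under 1 FPKM in all libraries and Snap25 listed at 0 in all, although Apbb1, Mapk8ip1, App and Bace1 are best known from neurons.

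Of the 8 genes, 2 passed the test at an adjusted p under 0.05 and both were lower in LRP1 KO: Shc1 and Mapk8ip1. This stands beside 13.6% of all tested genes called in either direction and 7.31% called lower, and nothing about the 8 genes is read from the count. The estimates were negative for 7 genes and positive for Gulp1, with a median difference of -0.13 on the log2(FPKM + 1) scale, against -0.01 over all tested genes. The groups did not overlap for Apbb1 and Mapk8ip1, a separation seen in 19.6% of all tested genes. No gene of the 8 changed by as much as 2-fold in its group means, with LRP1 KO means from 75.5% (Apbb1) to 143% (Gulp1) of the WT mean.

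**Figure D1:**
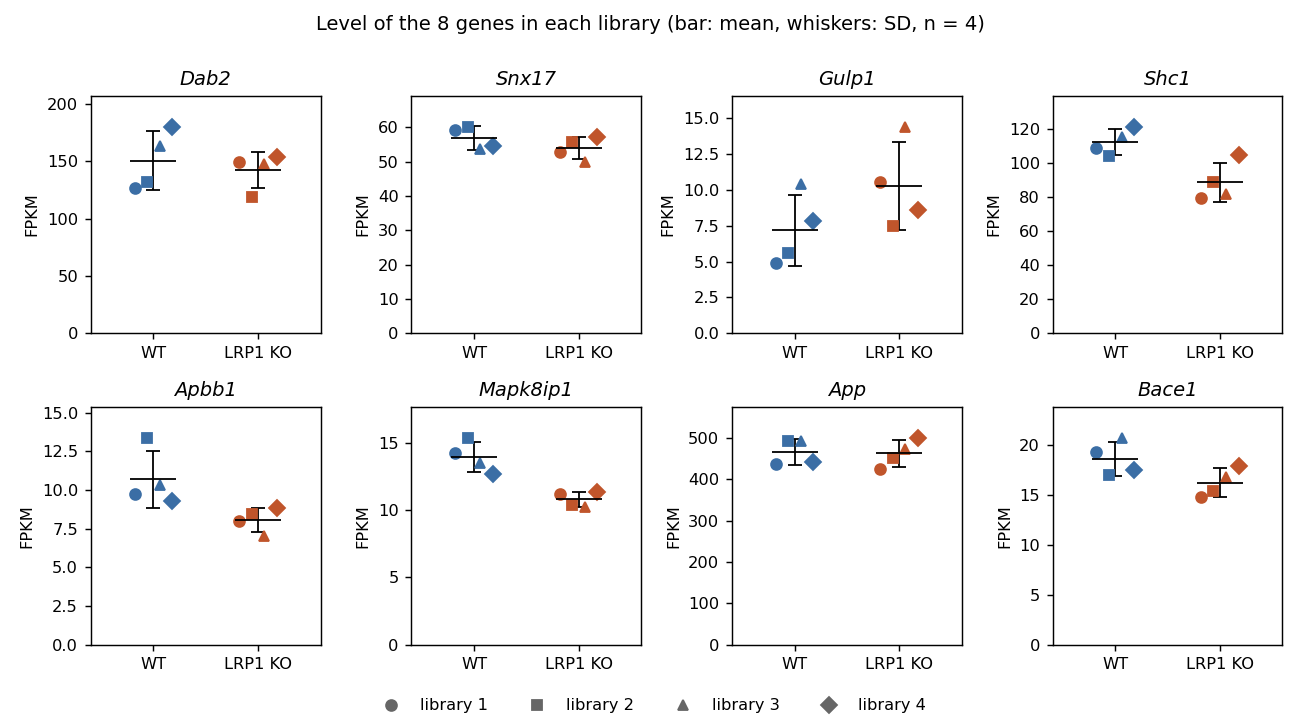
Each panel plots the FPKM of 1 gene (vertical axis, starting at 0) in the 4 WT (blue) and 4 LRP1 KO (orange) libraries, with marker shapes for library numbers, horizontal bars for means and whiskers for SD. All 4 LRP1 KO libraries lie below all WT libraries for Apbb1 and Mapk8ip1, and for Shc1 only LRP1 KO library 4 reaches the WT range.

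The 8 genes covered a wide range of levels. In WT the order by mean was App at 467 ± 31.4 FPKM, Dab2 at 151 ± 25.6, Shc1 at 113 ± 7.48, Snx17 at 56.8 ± 3.37, Bace1 at 18.6 ± 1.72, Mapk8ip1 at 14.0 ± 1.15, Apbb1 at 10.7 ± 1.85 and Gulp1 at 7.19 ± 2.46 FPKM (SD, n = 4 each). Neighbours in this order were separate in every library down to Mapk8ip1, while Mapk8ip1 overlapped Apbb1 and Apbb1 overlapped Gulp1. The order was the same in LRP1 KO except that Gulp1, at 10.3 ± 3.05 FPKM, stood above Apbb1, at 8.06 ± 0.788 FPKM, where Mapk8ip1 overlapped Gulp1 and Gulp1 overlapped Apbb1. App thus had more transcript per length than any of the adaptors, at a level above that of 98.5% of tested genes.

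The proportion between the partner transcripts and that of the receptor differed by more than an order of magnitude between the groups. The 6 adaptors together summed to 352 ± 29.5 FPKM over the WT libraries, against 314 ± 22.5 FPKM over the LRP1 KO libraries (SD, n = 4 each). In WT this was 2.36 to 3.55 times the level of Lrp1 in the same library, and in LRP1 KO 44.6 to 112 times. Dab2 alone was at 0.944 to 1.58 times Lrp1 in WT and at 19.9 to 53.0 times in LRP1 KO. App went from 3.52 to 4.78 times Lrp1 to between 64.8 and 170.1 times. These ratios are of transcripts, and all share Lrp1 as their denominator, so a lower Lrp1 raises every one of them. Which cells of the mix lost Lrp1 was not tested.

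**Figure D2:**
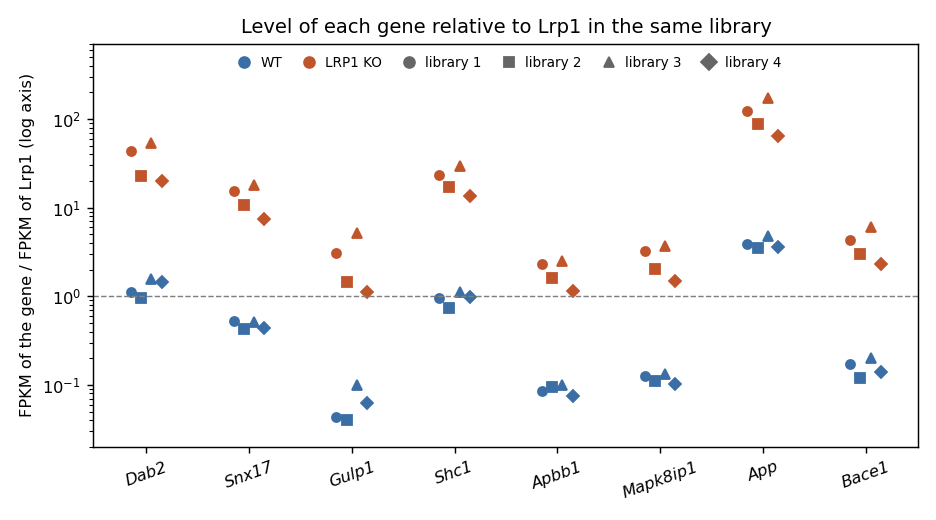
The vertical axis (log scale) gives the FPKM of each gene divided by the FPKM of Lrp1 in the same library, for WT (blue) and LRP1 KO (orange) libraries, and the dashed line marks a ratio of 1. In WT all 4 libraries are above the line for App only, and in LRP1 KO the lowest of all ratios is 1.12, for Gulp1.

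The endocytic and recycling adaptors are described first. Dab2 (ENSMUSG00000022150, chromosome 15, plus strand, 6299788 to 6440712 in GRCm38) encodes an adaptor that binds the tails of LDL receptor family members and brings them to clathrin and its AP-2 complex. Dab2 was at 127, 133, 163 and 180.5 FPKM across WT libraries 1 to 4, against 149, 119, 148 and 154 FPKM across LRP1 KO libraries 1 to 4. The LRP1 KO values lay within the WT range apart from library 2, which was below it. The difference was -0.07 on the log2(FPKM + 1) scale (SE 0.12, 95% interval -0.35 to 0.21, limma adjusted p 0.711). Its sign was not stable, at 0.0099 without LRP1 KO library 2 and 0.018 without WT library 4. The interval leaves room for values of FPKM + 1 from 0.782 to 1.15 times those of WT. On the other strand, Gm18888 overlaps exons of Dab2.

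Snx17 (ENSMUSG00000029146, chromosome 5, plus strand, 31193227 to 31199143) encodes a sorting nexin that binds an NPxY motif of internalised receptors and returns them to the cell surface. Snx17 was at 59.3, 60.2, 53.5 and 54.4 FPKM across WT libraries 1 to 4, against 52.8, 55.6, 49.8 and 57.2 FPKM across LRP1 KO libraries 1 to 4. The groups overlapped in part, with 2 LRP1 KO values below every WT value, and Snx17 had the smallest spread of the 8 in WT, with a coefficient of variation of 5.93%. The difference was -0.08 (SE 0.06, 95% interval -0.22 to 0.07, limma adjusted p 0.423), and moved to -0.040 without LRP1 KO library 3. Its exons overlap those of Eif2b4 and Zfp513 on the other strand, and since it is not stated whether strand was used, reads in the overlap cannot be told apart.

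Gulp1 (ENSMUSG00000056870, chromosome 1, plus strand, 44551511 to 44796838) encodes a PTB-domain adaptor known for the engulfment of dying cells and for the traffic of LRP1. Gulp1 was at 4.92, 5.63, 10.4 and 7.84 FPKM across WT libraries 1 to 4, against 10.6, 7.45, 14.4 and 8.62 FPKM across LRP1 KO libraries 1 to 4. WT libraries 3 and 4 lay inside the LRP1 KO range, and 2 of the 4 LRP1 KO libraries exceeded every WT value. The spread was the widest of the 8 genes in both groups, with coefficients of variation of 34.3% and 29.7%. The estimate of 0.47 (SE 0.23) had a 95% interval of -0.06 to 0.99 and did not pass (limma adjusted p 0.188), so that values of FPKM + 1 from 0.962 to 1.99 times those of WT lie within it. The estimate was 0.31 without LRP1 KO library 3 and 0.64 without WT library 3, the lowest and the highest of the 8 fits with 1 library left out.

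The signaling adaptors held both genes that passed. Shc1 (ENSMUSG00000042626, chromosome 3, plus strand, 89418443 to 89430027) encodes an adaptor with a PTB and an SH2 domain that binds the tail of LRP1 once its distal NPxY tyrosine is phosphorylated and passes the signal towards GRB2 and RAS. Shc1 was at 109, 104.5, 115 and 122 FPKM across WT libraries 1 to 4, against 79.7, 88.9, 81.9 and 104.9 FPKM across LRP1 KO libraries 1 to 4. Libraries 1 to 3 of LRP1 KO were below every WT library, and LRP1 KO library 4 stood just above the lowest WT value. The mean fell from 113 ± 7.48 to 88.8 ± 11.4 FPKM (SD, n = 4 each), to 78.9% of WT. On the log2(FPKM + 1) scale Shc1 fell by 0.34 (SE 0.09, 95% interval -0.55 to -0.14, limma adjusted p 0.0363). The call was lost when any of LRP1 KO libraries 1 to 3 or WT libraries 1 to 4 was left out, with estimates of -0.38 to -0.30 and adjusted p-values of 0.0660 to 0.107, and held without LRP1 KO library 4 at -0.43 (adjusted p 0.00334). It was also lost with no filter on low values (adjusted p 0.0643).

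Shc1 is transcribed from alternative starts, and the deposited values are per gene, so that the fall cannot be assigned to transcripts of either start. The stretches of 250 bases before its starts in RefSeq (GRCm38.p6, plus strand, chr3:89418301-89418550 and chr3:89421371-89421620) are shown because Shc1 passed the test and both starts feed the same value. Capitals mark the GC box, GGGCGG or CCGCCC on either strand.
Shc1 upstream start: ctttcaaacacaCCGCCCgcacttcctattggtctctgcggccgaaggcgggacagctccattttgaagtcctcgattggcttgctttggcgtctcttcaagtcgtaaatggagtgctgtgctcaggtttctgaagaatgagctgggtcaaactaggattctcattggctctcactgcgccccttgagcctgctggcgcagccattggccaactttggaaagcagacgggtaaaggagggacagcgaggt
Shc1 downstream start: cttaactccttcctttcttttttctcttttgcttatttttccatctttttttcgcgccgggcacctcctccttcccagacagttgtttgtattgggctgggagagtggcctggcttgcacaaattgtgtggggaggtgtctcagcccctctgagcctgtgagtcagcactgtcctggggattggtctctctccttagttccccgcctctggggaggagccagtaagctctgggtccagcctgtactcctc
The upstream window held 1 GC box and the downstream window 0, where 32.7% of all 32851 RefSeq windows of the same length held at least 1. The forkhead motif GTAAACA, read by FoxO factors among others, was searched on both strands, since the study deals with FoxO factors. It was in 3.17% of all windows and in 0 of the 10 windows of the 6 members that had any, which says only that these letters were not in those windows. Mapk8ip1, the other called member, and Bace1 had no window and were not searched.

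Mapk8ip1 (ENSMUSG00000027223, chromosome 2, minus strand, 92383676 to 92401263) encodes JIP1, a scaffold that holds the kinases of the JNK pathway together and binds the tails of LRP1 and APP. Mapk8ip1 was at 14.3, 15.4, 13.5 and 12.7 FPKM across WT libraries 1 to 4, against 11.2, 10.4, 10.3 and 11.3 FPKM across LRP1 KO libraries 1 to 4. All 4 LRP1 KO libraries were below all WT libraries, LRP1 KO library 4 included. The mean fell from 14.0 ± 1.15 to 10.8 ± 0.548 FPKM (SD, n = 4 each), to 77.3% of WT. Mapk8ip1 fell by 0.34 on the log2(FPKM + 1) scale (SE 0.07, 95% interval -0.50 to -0.18, limma adjusted p 0.0187). The call was lost without LRP1 KO library 2 (adjusted p 0.0616), LRP1 KO library 3 (0.0614) or WT library 2 (0.0540). Exons of Mapk8ip1 overlap 1700029I15Rik on the other strand, and reads in the overlap cannot be told apart.

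Apbb1 (ENSMUSG00000037032, chromosome 7, minus strand, 105558483 to 105581653) encodes FE65, whose PTB domains can hold LRP1 and APP at the same time. Apbb1 was at 9.72, 13.4, 10.3 and 9.30 FPKM across WT libraries 1 to 4, against 7.99, 8.44, 7.001 and 8.83 FPKM across LRP1 KO libraries 1 to 4. The groups did not overlap, but WT library 2 stood well above the other WT libraries. The estimate, -0.36 (SE 0.11, 95% interval -0.61 to -0.10), was as large as those of Shc1 and Mapk8ip1 and did not pass over all genes (limma adjusted p 0.0631). Without LRP1 KO library 4 it passed, at -0.40 (adjusted p 0.0423).

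App (ENSMUSG00000022892, chromosome 16, minus strand, 84949685 to 85173766) encodes the amyloid precursor protein, which LRP1 takes up and whose processing it influences. App was at 438, 494, 494 and 441 FPKM across WT libraries 1 to 4, against 424, 451, 474 and 500.4 FPKM across LRP1 KO libraries 1 to 4. The ranges lay on top of each other. The difference was -0.01 (SE 0.07, 95% interval -0.17 to 0.15, limma adjusted p 0.921), and turned positive after rescaling of the libraries (0.0033), without LRP1 KO library 1 (0.028) and without WT library 2 or 3 (0.015 each). The interval corresponds to 0.887 to 1.11 times the WT value of FPKM + 1. App was the gene of the 8 with the estimate closest to 0. On the other strand, Gm49227 overlaps exons of App.

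Bace1 (ENSMUSG00000032086, chromosome 9, plus strand, 45838580 to 45864399) encodes the beta-secretase, an aspartic protease that cuts APP and can also shed LRP1. Bace1 was at 19.3, 17.0, 20.7 and 17.5 FPKM across WT libraries 1 to 4, against 14.8, 15.4, 16.8 and 17.96 FPKM across LRP1 KO libraries 1 to 4. LRP1 KO library 4 lay inside the WT range and the other 3 below it. The estimate of -0.19 (SE 0.08, 95% interval -0.37 to 0.00013) did not pass (limma adjusted p 0.149). Exons of Bace1 overlap Rnf214 and other genes on the other strand.

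**Figure D3:**
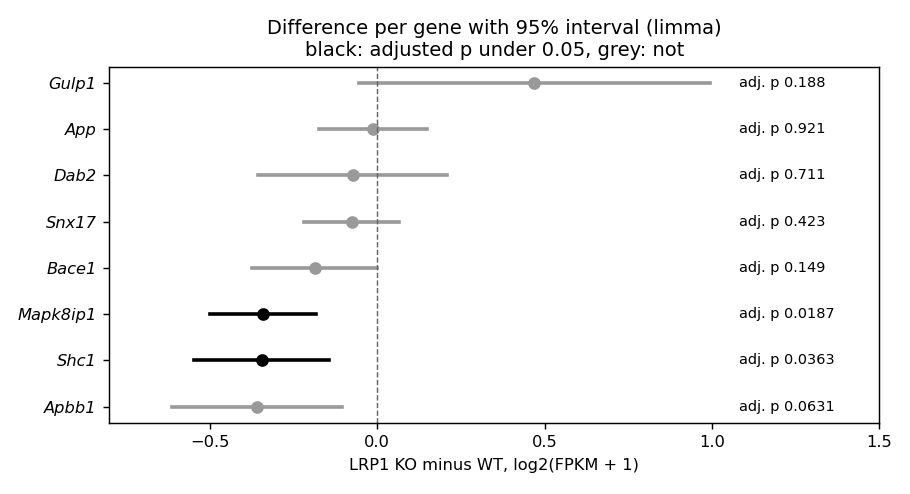
The horizontal axis gives LRP1 KO minus WT on the log2(FPKM + 1) scale for each gene, with points for estimates and bars for 95% intervals from limma, and black for an adjusted p under 0.05. The intervals of Mapk8ip1, Shc1 and Apbb1 lie below 0, and that of Gulp1, from -0.06 to 0.99, is the widest.

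LRP1 KO library 4 had the highest value among the LRP1 KO libraries in 7 of the 8 genes, Gulp1 being the exception. Over all tested genes it had the highest value in 33%. In 4 of the 8 genes, Shc1, Apbb1, Mapk8ip1 and Bace1, the other 3 LRP1 KO libraries were all below every WT library, a separation seen in 19.9% of all tested genes, or 37.8% with those all above counted too. Their means over these 3 libraries were 74.1%, 73.1%, 76.1% and 84.1% of the WT mean. Without LRP1 KO library 4, 3 of the 8 genes passed, Apbb1 being added to Shc1 and Mapk8ip1. Leaving out 1 of the other libraries gave 1 call (LRP1 KO library 1, WT libraries 1, 3 and 4) or 0 (LRP1 KO libraries 2 and 3, WT library 2). The same holds for the whole table, where 2959 genes were called without LRP1 KO library 4 and 433 to 989 without any other library, against 1547 with all 8.

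**Figure D4:**
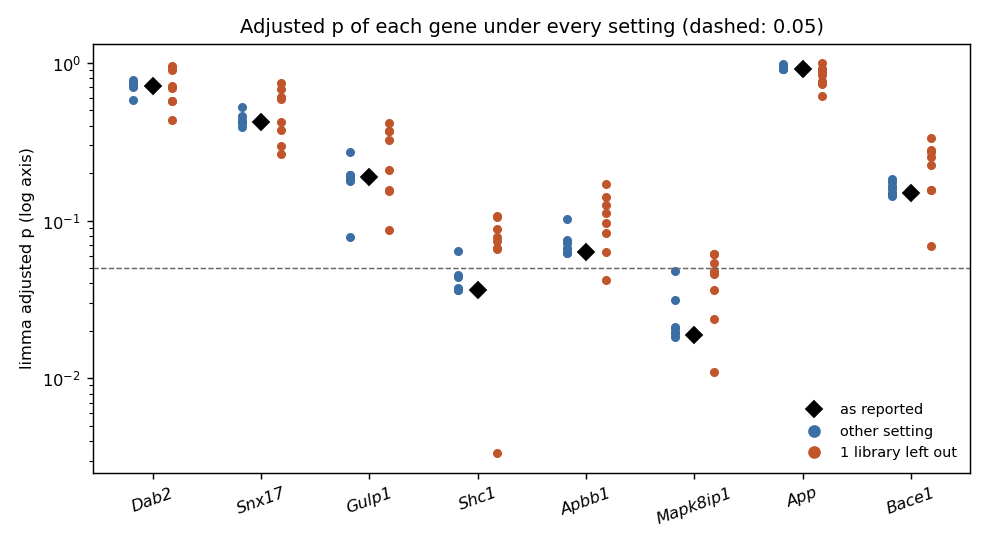
The vertical axis (log scale) gives the limma adjusted p of each gene as reported (black), under 7 other settings of the processing (blue) and with each of the 8 libraries left out in turn (orange), and the dashed line marks 0.05. Points of Shc1, Mapk8ip1 and Apbb1 lie on both sides of the line, and those of the other 5 genes all above it.

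Close relatives of these genes were present at unequal levels. Dab1, the relative of Dab2, was listed at 0.0034 FPKM or less in all libraries, and Shc3, Mapk8ip2 and Snx31 were under 0.15 FPKM in all. Shc2, with means of 5.03 ± 0.639 (WT) and 5.06 ± 0.929 FPKM (LRP1 KO; SD, n = 4 each), was below Shc1 in all 8 libraries and gave an estimate of -0.0010 (limma adjusted p 0.997). For FE65 the relative Apbb2 was the more abundant in all 8 libraries, at 18.9 ± 5.12 and 17.8 ± 3.09 FPKM, with an estimate of -0.06 (95% interval -0.48 to 0.37, limma adjusted p 0.858). The other FE65 relative, Apbb3, was below Apbb1 in all 8 libraries, at 5.62 ± 0.827 and 4.43 ± 0.449 FPKM, and 3 of its 4 LRP1 KO values were under every WT value. Its estimate was -0.28 (95% interval -0.52 to -0.05) with an unadjusted p of 0.0242, and it did not pass (limma adjusted p 0.0973). Mapk8ip3, the gene for the JNK scaffold JIP3, was likewise above Mapk8ip1 in all 8 libraries, at 15.9 ± 1.39 and 16.7 ± 1.70 FPKM, and had an estimate of 0.07 (95% interval -0.13 to 0.26, limma adjusted p 0.626). The APP relatives Aplp2, at 153 ± 16.5 and 141 ± 6.41 FPKM, and Aplp1, at 34.5 ± 6.49 and 40.1 ± 2.30 FPKM, were below App in all libraries and did not pass (limma adjusted p 0.363 and 0.207). Bace2 was at 2.05 ± 0.477 and 1.97 ± 0.377 FPKM, below Bace1 in all libraries (limma adjusted p 0.874). Whether these relatives differed from the members in their response was not tested.

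Around the members, 8 lists of partner genes held 99 genes, of which 98 were in the table and 90 were tested. Of these, 5 were called higher and 4 lower, beside 6.27% of all tested genes called higher and 7.31% called lower. The median difference of the 90 genes was 0.07, against -0.01 over all tested genes. Hras, a member of the list for SHC signaling, was not analysed here.

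Of the 9 calls, 6 were among the proteases that shed LRP1 or APP, the gamma-secretase subunits and their regulators. In that list 3 of 18 tested genes were called higher and 3 lower, with a median of -0.02. Over all tested genes 6.27% were called higher and 7.31% lower, and nothing about the list is read from its count. Adam17, a sheddase of LRP1 and of many other surface proteins, fell from 19.7 to 23.9 FPKM in WT to 14.5 to 18.7 FPKM in LRP1 KO, by 0.40 (SE 0.08, limma adjusted p 0.0193). Psen2, a catalytic subunit of gamma-secretase, fell from 33.6 to 43.2 FPKM to 24.7 to 32.8 FPKM, by 0.40 (SE 0.10, limma adjusted p 0.0330). In both genes all LRP1 KO libraries were below all WT libraries.

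Adam9, a protease of the same family as Adam17, rose from 78.1 to 109 FPKM in WT to 117 to 171 FPKM in LRP1 KO, by 0.60 (SE 0.14, limma adjusted p 0.0297). Adam12, another sheddase of LRP1, rose from 4.27 to 6.20 FPKM to 6.98 to 9.85 FPKM, by 0.47 (SE 0.13, limma adjusted p 0.0405). The other calls of this list were Timp3, the tissue inhibitor of ADAM17 and other metalloproteases, at 0.34 higher (limma adjusted p 0.0183), and the gamma-secretase subunit Aph1a, which fell by 0.18 (limma adjusted p 0.0459). Timp3 held only the values 400.6 and 402.4 FPKM in the LRP1 KO libraries, 2 libraries each. Quantile normalization gives a rank nearly the same value in every library, so its SD there is that of ranks. Adam10, at 32.7 ± 6.62 and 37.0 ± 3.68 FPKM, and Mmp14, at 249.7 ± 8.70 and 225 ± 21.01 FPKM (SD, n = 4 each), did not pass (limma adjusted p 0.345 and 0.151).

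In the clathrin list 1 of 17 tested genes was called, Cltb, a clathrin light chain, which rose by 0.25 (SE 0.06, limma adjusted p 0.0297), from 74.3 to 79.1 FPKM in WT to 82.4 to 96.2 FPKM in LRP1 KO. In the list for SHC signaling 1 of 11 was called, Fyn, a Src family kinase, which rose by 0.46 (SE 0.11, limma adjusted p 0.0260) from 10.9 to 12.5 FPKM to 13.0 to 19.0 FPKM. In the list for the JNK module of JIP1 1 of 10 was called, Map3k12, a kinase upstream of JNK, which fell by 0.31 (SE 0.09, limma adjusted p 0.0449) from 8.22 to 9.59 FPKM to 6.47 to 8.14 FPKM. No gene passed among the 12 tested of 18 other tail adaptors (estimates from -0.28 to 0.09) and 3 genes of the APP family (-0.11 to 0.23). None passed among 15 genes that act with SNX17 in retrieval (-0.25 to 0.17) and 4 partners of FE65 (-0.15 to 0.43). By limma, 1 of the 12, 0 of the 3, 3 of the 15 and 1 of the 4 had an unadjusted p under 0.05, where 33.7% of all tested genes did. Apba2, a tail adaptor too low to be tested, was at 0.620 to 1.02 FPKM in WT and 0.195 to 0.574 FPKM in LRP1 KO.

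All 9 calls held without LRP1 KO library 4, and each was lost without several of the other libraries. With 1 library omitted at a time, Timp3 held in 5 of 8 fits, Adam17 in 4, Adam9 in 3, Psen2, Fyn and Aph1a in 2 and Adam12, Cltb and Map3k12 in 1. The count over the lists ran from 0 without LRP1 KO library 1, 2 or 3 to 21 without LRP1 KO library 4. Without WT libraries 1, 2, 3 and 4 it was 3, 1, 6 and 4. Other settings ended calls too. With no filter on low values, Adam9, Adam12, Psen2, Fyn and Map3k12 were lost (limma adjusted p 0.0504 to 0.0761). Rescaling by median ratios ended the calls of Map3k12 (0.0522) and Aph1a (0.0641), and a fit without a variance trend that of Aph1a (0.0673). The count over the lists was 5 with no filter and 8 with rescaling, so calls were also gained there outside the 9.

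**Figure D5:**
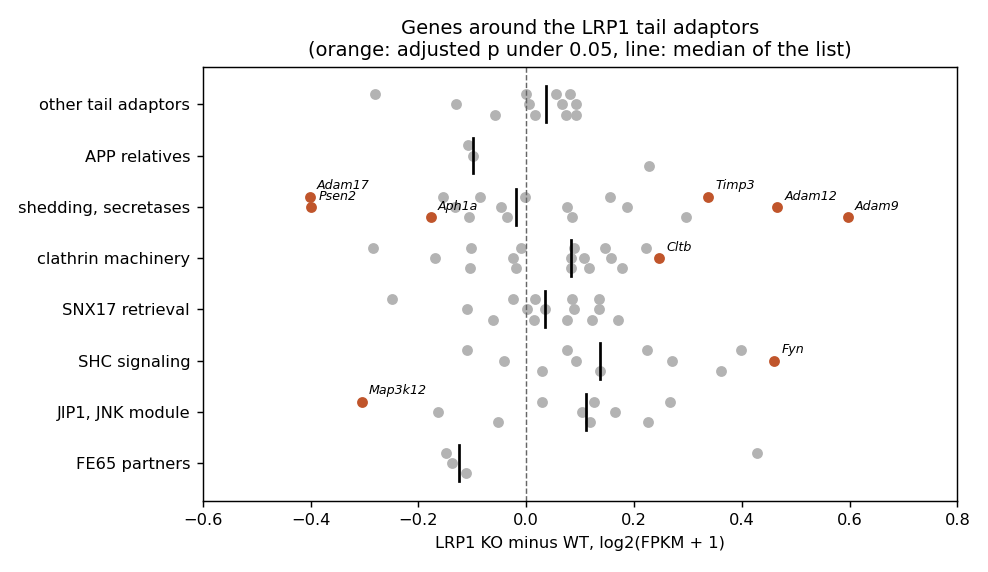
Each point is a tested gene of a partner list, placed by LRP1 KO minus WT on the log2(FPKM + 1) scale, in orange with its name where the adjusted p was under 0.05, and vertical lines are list medians. Called genes lie on both sides of 0 in the list for shedding and secretases, from -0.40 for Adam17 to 0.60 for Adam9.

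The genes whose pattern over the 8 libraries was most like that of the called members were sought among the other 11388 tested genes. For Shc1 they were Klhl29 and Etfdh, with Pearson correlations of 0.985 and 0.983 on the log2(FPKM + 1) scale. For Mapk8ip1 they were Samd10 and Bcr, with 0.994 and 0.991. Correlations over 0.9 were shared by 271 genes for Shc1 and 498 for Mapk8ip1. The libraries fall into the groups compared, so any gene that differed between the groups in the same direction correlates with them.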

How the data were processed

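RNA sequencing libraries (Illumina TruSeq) of 4 LRP1 KO and 4 WT samples were analysed from the table the authors deposited. The submitters' processing notes name TopHat2, Cufflinks and mm10, whereas the study's methods describe STAR and featureCounts. The values were taken as FPKM that the authors deposited after quantile normalization: they are not whole numbers, and all 8 columns share their highest value (7793) and nearly the same sum (503571 to 504112). The header names no unit. Depth is therefore unknown, no counting error can be given, and precision rests on the spread between libraries.

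Values were analysed as log2(FPKM + 1), which understates changes of low genes. Genes at 1 or more in at least 4 libraries were tested. All 8 libraries entered 1 linear model, whose sole factor was the group (limma 3.58.1, R 4.3.3, variance trend, Benjamini-Hochberg over all tested genes, call at an adjusted p under 0.05). The procedure was tested on simulated data. The study's methods describe a count-based test, which these values do not allow.

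The members and lists were chosen with earlier results of these data known. Named genes were the members, Lrp1, up to 4 called genes per partner list with the largest change, and the 2 genes most like each called member. Timp3 and Aph1a, the relatives and uncalled partners were named after their values were seen. Positions come from GENCODE M21 (GRCm38), start windows from RefSeq. Protein sequences were not used here. Alternatives were pseudocounts of 0.1 and 5, no filter, a mean of at least 5, median-ratio scaling, no variance trend, the replicate number as a block and each library left out. Whether replicate numbers pair the libraries is not given, and they were not taken as pairs. A result for 1 partner gene is not reported here.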

Additional observations from a re-analysis of the deposited data

Results flagged for a closer look

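For the 18 genes with full statistics, each group of 4 libraries was examined for a library far from the other 3 by Dixon's criterion (36 groups), which chance exceeds in about 1 group in 20. It was exceeded in 2 groups. Dab2 was at 119 FPKM in LRP1 KO library 2, apart from 148 to 154 FPKM in the other 3 LRP1 KO libraries. Map3k12 was at 8.14 FPKM in LRP1 KO library 4, apart from 6.47 to 6.63 FPKM in the other 3 and just below the lowest WT value of 8.22 FPKM.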

How the results depend on the processing

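Lrp1 kept its direction and its call in all 15 alternatives (-4.72 to -3.69), and Snx17, Gulp1 and Bace1 kept direction and stayed without a call in all 15. With no filter on low values, 1 member (Mapk8ip1) and 5 partner genes were called, and Shc1 kept its estimate of -0.34 at an adjusted p of 0.0643. Rescaling by median ratios turned App to 0.0033. Pseudocounts, the other filter and the variance model changed no member's call. When 1 library was left out, the count over all genes ran from 433 to 2959, that of members from 0 to 3 and that of partner genes from 0 to 21, with differences of -0.43 to -0.30 for Shc1, -0.38 to -0.30 for Mapk8ip1, -0.41 to -0.25 for Apbb1, -0.15 to 0.018 for Dab2 (0.0099 without LRP1 KO library 2) and -0.051 to 0.028 for App (0.015 without WT library 2 or 3). These fits hold fewer libraries. Deviations of same-numbered libraries correlated at -0.31 to 0.34, and 2 of 4 WT libraries correlated best with their own number, so the numbers were not taken as pairs. With the replicate number as a block, 1013 genes, 2 members and 6 partner genes were called, and Cltb (adjusted p 0.0570), Fyn (0.0584), Aph1a (0.0850) and Map3k12 (0.0876) lost their calls. Depth is unknown and quantile normalization hides shifts in total RNA.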
